A study of Mus musculus with 6 samples.

Results

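The genes described here encode titin, its partners in the Z-disc, A-band and M-band, the tropomyosins and thin filament caps, and the factors that assemble or break down these structures. They were chosen by symbol: 39 genes on a list of sarcomere genes that leaves out myosins, actins and troponins, all 39 of which are among the 54532 genes of the deposited table. RNA of mouse hearts was sequenced in a series on diabetes in pregnancy and its effect on the offspring, and the samples carry the label 4d, read here as day 4. In the control group (n = 3) citric acid was injected into the peritoneum of the pregnant mothers, and in the STZ group (n = 3) STZ, read here as streptozotocin, which kills insulin-producing cells. Both groups were wild type and of ICR, an outbred mouse stock. Whether hearts came from different litters is not in the labels, so p-values measure the spread between these samples, which may in part be technical.

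The sarcomere is the contractile unit of heart muscle, bounded on each side by a Z-disc. Actin filaments are anchored in the Z-disc by alpha-actinin, myosin filaments are tied together at the M-band by myomesins, and titin spans from one to the other as a molecular spring. Z-disc and M-band proteins also carry signals of stretch to the nucleus, and mutations in several of them cause cardiomyopathy.

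The libraries held between 16707268 and 18082599 recovered whole reads, and levels are given as FPKM, fragments or reads per kilobase of gene length, divided by a scale the authors set for each sample. Control 2 stood apart from the other 5 libraries. The summed level of 8 atrial marker genes was 6144 FPKM in control 2, against 55.5 and 61.3 FPKM in controls 1 and 3 and 49.1 to 131 FPKM in the STZ hearts. Among them Myl7, the atrial myosin light chain, was at 3930 FPKM in control 2 and at 2.92 to 18.3 FPKM in the others, and Sln was at 0 in control 1 and in every STZ heart. Not every atrial marker rose so far. Nr2f2 was at 4.89 FPKM in control 2 against 2.11 to 3.37 FPKM, and Kcna5 was lowest in control 2, at 3.90 against 4.87 to 9.20 FPKM. The 10 cardiomyocyte reference genes (Myh6, Tnnt2 and others that are not on the list) summed to 8395 FPKM in control 2, 15092 to 17847 FPKM in the other controls and 15380 to 16688 FPKM in the STZ hearts. Every one of these 10 genes was above 0 in every library, so markers of heart muscle were present in all hearts. Summed fibroblast markers were at 1558 FPKM in control 2, 838 and 965 FPKM in the other controls and 766 to 808 FPKM in the STZ hearts, with 8 of 8 genes lower in STZ and 0 past the threshold. Skeletal muscle markers summed to 23.1 FPKM in control 2 and to at most 1.38 FPKM elsewhere, with Myod1 at 0 in all 6. In bulk tissue, fewer cells of a type and less RNA per cell cannot be told apart. The part of these differences in the results below was not tested, and log2 fold changes of the genes are given with all hearts and, where it moves them, without control 2.

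Of the 39 genes, 38 reached 1 FPKM in at least 3 samples and were tested. None passed the threshold of an adjusted p of 0.05 in limma, which called 3 of 12431 genes tested (0.0241%; 0.0161% higher and 0.00804% lower in STZ). At an unadjusted p under 0.05 limma counted 0 of the 38, where 2.59% of all genes tested did. With voom on recovered reads, 0 of the 38 passed and 1 (Trim55) had an unadjusted p under 0.05. Of all 12431 genes, 113 higher and 137 lower in STZ did so with voom. In all, 29 of the 38 genes (76.3%) had a higher and 9 a lower level in STZ hearts, where 57.7% of all genes tested were higher. The median log2 fold change, STZ minus control on the log2(FPKM + 1) scale, was 0.29 over the 38 genes and 0.03 over all genes tested. Without control 2 it was 0.04, with 26 of 38 higher (68.4%), where 49.5% of all genes then tested were higher. The groups did not overlap at 4 of the 38 genes (10.5%), where 8.54% of all genes tested did not overlap (4.92% with STZ above, 3.62% with STZ below). These 4 were Mybpc3, Trim55, Xirp1 and Flnc, each with every STZ heart above every control heart.

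**Figure D1:**
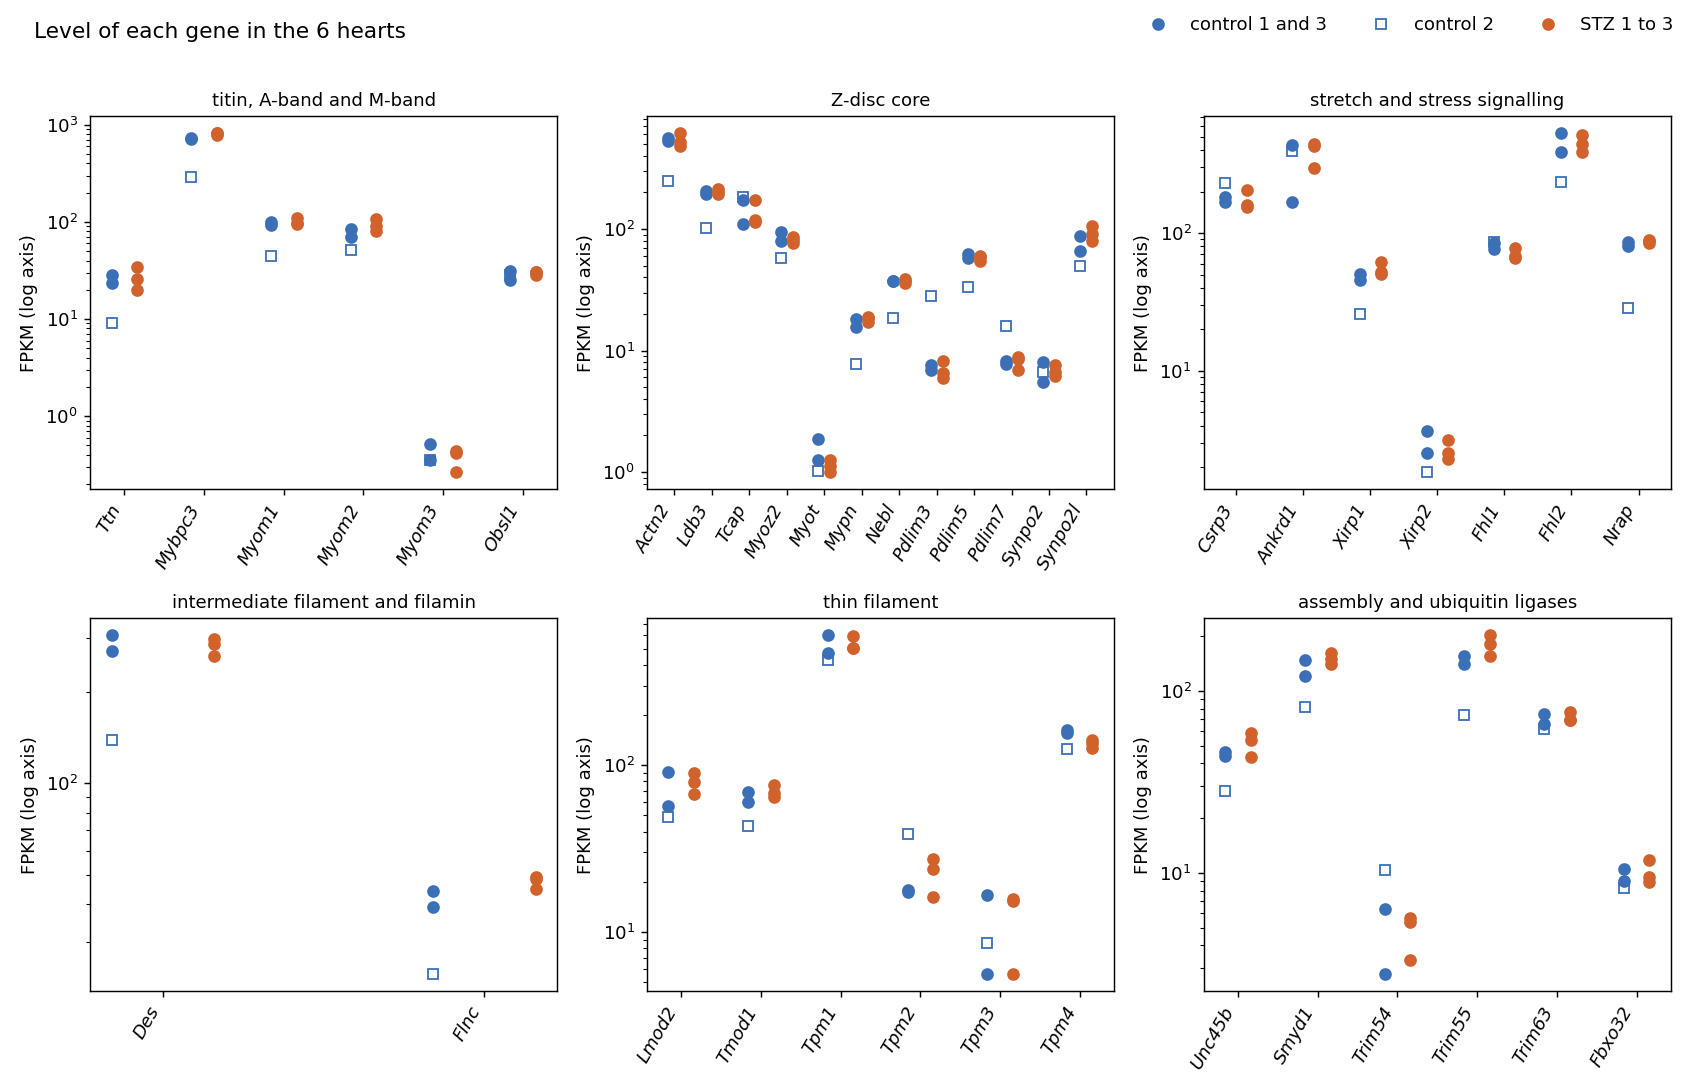
FPKM (log axis) of the 39 genes in each heart, in 6 panels by role. Filled blue points are controls 1 and 3, open squares control 2 and orange points the 3 STZ hearts. For most genes the open square lies apart from the other 5 points, below them at Nrap (28.4 FPKM) and above them at Pdlim3 (28.1 FPKM), while the other controls lie among or close to the STZ hearts.

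Levels per length differed widely between the genes. Mybpc3, Tpm1 and Actn2 had the highest means over the 6 hearts, 12 genes had a mean of at least 100 FPKM, 20 lay between 10 and 100 FPKM, and 7 were under 10 FPKM. Among the tested genes the fewest recovered reads in a library were 41 (Myot) and the most 74909 (Ttn).

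Titin and the A-band and M-band genes were higher on average in STZ hearts at 5 of 5 tested members, none past the threshold, with a median log2 fold change of 0.45 that was 0.09 without control 2. Mybpc3 (ENSMUSG00000002100, GRCm38 chromosome 2, 91118144 to 91136516, plus strand) encodes cardiac myosin-binding protein C, which lies on the thick filament and tunes cross-bridge cycling. Mybpc3 was at 728, 289 and 721 FPKM in controls 1 to 3 and at 817, 788 and 814 FPKM in STZ 1 to 3. The STZ values lay within a narrow band just above controls 1 and 3, and control 2 was far below. The mean was 579 ± 251 FPKM in the controls and 806 ± 15.7 FPKM in the STZ hearts (SD, n = 3 each), a log2 fold change of 0.60 (SE 0.372, 95% interval -0.29 to 1.48; adjusted p = 0.922 in limma). Without control 2 the Mybpc3 value was 0.15, with an interval from -0.09 to 0.40. By exact two-sided permutation the 6 Mybpc3 values gave p = 0.1, the smallest that 3 against 3 samples allow.

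Ttn (chromosome 2, 76703980 to 76982547, minus strand) encodes titin, whose deposited gene length of 116825 bases is the longest of the list. Ttn was at 23.5, 9.16 and 28.2 FPKM in the controls and 19.9, 26.1 and 34.6 FPKM in the STZ hearts. STZ 3 was the highest heart and STZ 1 lay below controls 1 and 3, so the groups overlapped, and the log2 fold change of 0.49 (SE 0.408) was 0.02 without control 2. Per length, titin stood at rank 28 of the 39 genes. Myom1 and Myom2 encode the myomesins that crosslink myosin filaments at the M-band. Myom1 was at 99.6, 45.1 and 93.4 FPKM in the controls and 97.9, 95.5 and 109 FPKM in the STZ hearts. Myom2 was at 70.4, 50.9 and 85.1 FPKM against 81.2, 106 and 90.9 FPKM. Both overlapped between groups, and the log2 fold change was 0.42 (SE 0.300) for Myom1 and 0.45 (SE 0.213) for Myom2, or 0.06 and 0.25 without control 2.

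The ratio of the myomesin genes within a heart does not depend on the scale of the library. The log2 ratio of Myom2 to Myom1 was -0.50, 0.18 and -0.13 in control and -0.27, 0.15 and -0.27 in STZ hearts. One control and 1 STZ heart had more Myom2 than Myom1, and the difference of means was 0.02 (exact two-sided permutation p = 1, BH-adjusted over 3 such ratios p = 1). It was 0.19 without control 2 and -0.15 without control 1, so its direction rested on single hearts. Myom3, the myomesin of slow and intermediate skeletal fibres, was under the filter at 0.406 ± 0.0916 and 0.374 ± 0.094 FPKM. Obsl1, which links titin and myomesin at the M-band, was at 28.2 ± 2.98 and 29.8 ± 1.31 FPKM, and it was among the few genes at which control 2 lay between the other controls.

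Of the 12 Z-disc core genes, 8 were higher and 4 lower in STZ hearts, none past the threshold, with a median log2 fold change of 0.16 (-0.007 without control 2). Actn2 encodes alpha-actinin, the crosslinker of actin in the Z-disc. Actn2 was at 557, 246 and 525 FPKM in the controls and 520, 481 and 612 FPKM in the STZ hearts. Controls 1 and 3 lay inside the STZ range, and control 2 was the 1 low heart. The Actn2 log2 fold change of 0.36 (SE 0.334) turned to -0.02 without control 2 (95% interval -0.34 to 0.31). Ldb3, or cypher, is a PDZ and LIM domain protein that binds alpha-actinin, and its values were 193, 102 and 204 FPKM in control against 214, 194 and 200 FPKM in the STZ hearts. The log2 fold change of Ldb3 was 0.35 (SE 0.274), and 0.03 without control 2.

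Tcap encodes telethonin, which caps the ends of a pair of titin molecules in the Z-disc. Tcap was at 173, 185 and 111 FPKM in the controls and 174, 113 and 120 FPKM in the STZ hearts. Unlike Actn2 and Ldb3, Tcap was not low in control 2, and its high and low hearts were spread over both groups, and the log2 fold change of -0.19 (SE 0.257) was -0.06 without control 2. Myoz2, which tethers calcineurin to the Z-disc, was at 77.2 ± 18.6 and 81.1 ± 5.10 FPKM. Mypn, or myopalladin, was at 13.8 ± 5.49 and 18.2 ± 0.865 FPKM, and Nebl, the cardiac nebulin-like protein, at 31.1 ± 10.8 and 37.3 ± 1.31 FPKM. In each of these 3 the larger control SD came with a low value of control 2, and the log2 fold changes of 0.10, 0.45 and 0.32 were -0.09, 0.10 and 0.0008 without it. Synpo2l, an actin-bundling protein of heart Z-discs, was at 67.9 ± 19.1 and 91.9 ± 12.97 FPKM, and the difference of 0.46 on the log2 scale (SE 0.226) was 0.26 without control 2. Synpo2 was at 6.74 ± 1.27 and 6.78 ± 0.684 FPKM, and Myot, encoding myotilin, at 1.39 ± 0.449 and 1.13 ± 0.133 FPKM.

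The PDZ-LIM genes of the Z-disc did not move as 1 block. Pdlim5, or ENH, was at 51.2 ± 15.8 FPKM in the controls and 58.03 ± 2.999 FPKM in the STZ hearts and was low in control 2, with a log2 fold change of 0.23 that was -0.05 without it. Pdlim3 (ENSMUSG00000031636, chromosome 8, 45885461 to 45919548, plus strand), encoding the actinin-associated LIM protein ALP, was at 7.66, 28.1 and 6.89 FPKM in the controls and 5.99, 8.15 and 6.55 FPKM in the STZ hearts. Pdlim7, or enigma, was at 8.15, 16.0 and 7.69 FPKM against 8.80, 8.47 and 6.88 FPKM. At both genes control 2 was the 1 high heart and the other controls lay inside the STZ range. The log2 fold change was -0.68 (SE 0.479) for Pdlim3 and -0.30 (SE 0.265) for Pdlim7, and -0.08 and 0.02 without control 2.

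Among the 7 genes of stretch and stress signalling, 5 were higher and 2 lower, none past the threshold, with a median of 0.29, or -0.03 without control 2. Ankrd1 encodes CARP, an ankyrin repeat protein on titin's spring region that is induced by load. Ankrd1 was at 168, 397 and 436 FPKM in the controls and 427, 444 and 295 FPKM in the STZ hearts. Here the low heart was control 1, and control 2 lay close to control 3. The Ankrd1 log2 fold change of 0.31 (SE 0.388) was 0.50 without control 2 and turned to -0.12 without control 1. Csrp3, the muscle LIM protein that senses stretch, was at 184, 230 and 168 FPKM against 160, 206 and 154 FPKM. The highest value was control 2 and the groups overlapped (log2 fold change -0.16, SE 0.188, or -0.03 without control 2).

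Fhl1 and Fhl2 encode LIM proteins that bind titin. Fhl2 was at 531, 235 and 386 FPKM in the controls and 517, 385 and 440 FPKM in the STZ hearts. Fhl1, on the X chromosome, was at 84.8, 86.1 and 76.7 FPKM against 66.2, 67.9 and 78.5 FPKM. Fhl1 was lower in 2 of 3 STZ hearts than in any control, STZ 3 lay between the controls, and the log2 fold change was -0.22 (SE 0.127, 95% interval -0.52 to 0.08). The Fhl1 value was -0.19 (SE 0.107) without control 2, while the Fhl2 value moved from 0.29 to -0.03.

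Xirp1 encodes an actin-binding protein of the intercalated disc. Xirp1 was at 50.2, 25.9 and 45.6 FPKM in the controls and 61.8, 50.8 and 51.9 FPKM in the STZ hearts. Every STZ heart lay above every control, by a gap between 50.2 and 50.8 FPKM (log2 fold change 0.47, SE 0.251; adjusted p = 0.922 in limma), and without control 2 the value was 0.19 (95% interval -0.09 to 0.46). Its relative Xirp2 was at 2.54, 1.84 and 3.66 FPKM against 2.54, 3.17 and 2.27 FPKM, overlapping throughout, with a log2 fold change of 0.01 that was -0.16 without control 2. Nrap encodes a scaffold on which new myofibrils form at the cell ends, and it was at 86.4, 28.4 and 81.1 FPKM in the controls and 85.5, 88.6 and 87.5 FPKM in the STZ hearts. Control 2 was at 0.339 of the mean of the other controls, the lowest such ratio of the list, and the log2 fold change of 0.57 (SE 0.404) was 0.06 without it (95% interval -0.13 to 0.25).

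Desmin and filamin C tie the Z-disc to its surroundings. Des, encoding the muscle intermediate filament, was at 307, 139 and 272 FPKM in the controls and 299, 263 and 286 FPKM in the STZ hearts. Flnc, whose product crosslinks actin at the Z-disc and membrane, was at 39.2, 23.6 and 44.2 FPKM against 48.5, 45.0 and 49.1 FPKM. Des overlapped, and its log2 fold change of 0.32 (SE 0.304) turned to -0.03 without control 2. At Flnc every STZ heart was above every control, with a log2 fold change of 0.45 (SE 0.230; adjusted p = 0.922 in limma), or 0.19 without control 2 (95% interval -0.03 to 0.41).

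Of the 6 thin filament genes, 4 were higher and 2 lower, none past the threshold, with a median of 0.17, or 0.11 without control 2. Lmod2, which elongates actin filaments at the pointed end, was at 65.7 ± 22.6 and 79.0 ± 11.5 FPKM. Tmod1, the tropomodulin that caps that end, was at 57.7 ± 13.3 and 69.7 ± 5.997 FPKM. The log2 fold changes of 0.30 for Lmod2 and 0.29 for Tmod1 were 0.12 and 0.10 without control 2. Tpm1 encodes the main tropomyosin of heart muscle, which gates myosin binding to actin. Tpm1 was at 601, 429 and 469 FPKM in the controls and 595, 508 and 502 FPKM in the STZ hearts. The groups overlapped, and control 2 was the lowest heart at 0.801 of the mean of the other controls, less of a drop than at Actn2 (0.454). The Tpm1 log2 fold change of 0.11 (SE 0.195) was 0.006 without it.

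Tpm2, the beta tropomyosin gene that smooth and skeletal muscle also use, was at 17.9, 38.5 and 17.3 FPKM in the controls and 23.8, 16.2 and 27.2 FPKM in the STZ hearts. Control 2 was the highest heart, and the log2 fold change turned from -0.06 to 0.30 without it. Tpm4, mainly a tropomyosin of other cell types, was at 157, 125 and 163 FPKM against 126, 141 and 135 FPKM. Control 2 was the lowest heart at Tpm4, so that without it every STZ heart was below both controls, with a log2 fold change of -0.25 (95% interval -0.47 to -0.03; adjusted p = 0.9998 in limma, against -0.14 with all 6). Tpm4 was the 1 gene of the 38 whose unadjusted interval left out 0 there. Of all 12224 genes then tested, 249 higher and 222 lower in STZ had an unadjusted p under 0.05 in limma. Summed over Tpm1 to Tpm4, the Tpm1 share of FPKM was 76.9%, 71.3% and 70.5% in control and 78.2%, 75.7% and 73.8% in STZ hearts. Control 1 lay inside the STZ range and the other controls below it, and the difference of means was 3.03 percentage points (exact two-sided permutation p = 0.3, BH-adjusted over 3 ratios p = 0.9).

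Tpm3, encoding a slow-muscle and cytoskeletal tropomyosin (chromosome 3, 90072649 to 90100902, plus strand), differed between hearts along neither the groups nor control 2. Tpm3 was at 5.60, 8.65 and 16.6 FPKM in the controls and 15.8, 5.62 and 15.4 FPKM in the STZ hearts. Control 3, STZ 1 and STZ 3 stood close together near the top, and control 1 and STZ 2 close together at the bottom. Leaving out control 2, Tpm3 had the largest ratio of highest to lowest library of the 38 genes, 2.96, where the median gene had 1.33. A retrotransposed copy, Tpm3-rs7 (ENSMUSG00000058126, chromosome 14, 113314608 to 113316754, plus strand), is annotated as protein-coding and differs from a Tpm3 coding sequence at 3 of 744 aligned bases, counted at coding positions 72, 98 and 127. Over 2108 aligned transcript bases the identity was 99.1%, with further differences outside the coding sequence. The following stretch, coding bases 42 to 101 of Tpm3 from GENCODE M21 on GRCm38, holds 2 of the 3 coding differences in capitals. It shows how little there is, within the coding sequence, to tell a read of one from a read of the other. Counted from 1 at the 5′ end of the stretch, the differences are G31A and G57A, with the Tpm3 base first.
Tpm3: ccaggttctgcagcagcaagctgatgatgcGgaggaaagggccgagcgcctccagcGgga
Tpm3-rs7: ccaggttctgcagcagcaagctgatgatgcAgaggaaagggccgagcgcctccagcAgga
After the last difference, 617 coding bases are identical in both.

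Reads assigned to the copy ran opposite to those of Tpm3. Of the reads given to either gene, Tpm3 held 23.2% in control 1 (95% Wilson interval 21.6% to 25.0%), 31.9% in control 2 and 59.1% in control 3. The share was 63.1% in STZ 1, 22.9% in STZ 2 (21.3% to 24.6%) and 61.0% in STZ 3 (59.1% to 62.7%). These intervals cover counting error only, and the 3 hearts at 59.1% or more and the 3 at 31.9% or less lay far outside each other's intervals, with both groups on both sides. Summed over Tpm3 and Tpm3-rs7, the level as RPM, reads scaled to the recovered total of the library, was 145, 199 and 173 RPM in the controls and 154, 150 and 158 RPM in the STZ hearts. The highest heart had 1.38 times the lowest for this sum, against 3.04 times for Tpm3 alone and 2.38 times for Tpm3-rs7 alone, and the groups overlapped (exact two-sided permutation p = 0.4). The deposited Tpm3 value is uncertain as a level of Tpm3, and its log2 fold change was 0.23 (SE 0.470). How reads that match both genes were assigned is not given in the sources used here.

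**Figure D2:**
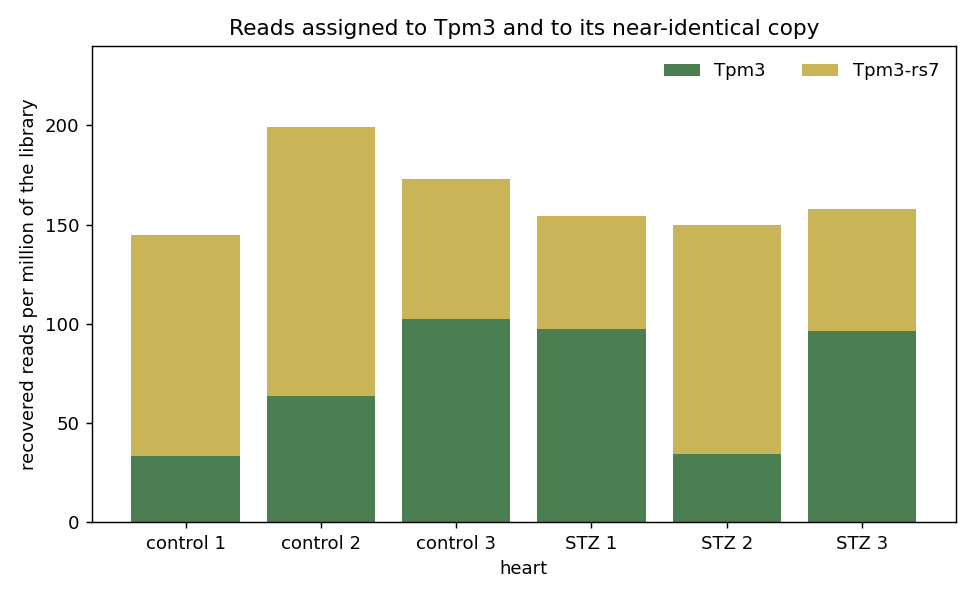
Recovered reads, scaled to the total of each library (RPM), assigned to Tpm3 (green) and to its copy Tpm3-rs7 (yellow, stacked), by heart. The stacks end between 145 and 199 RPM, while the green part is 33.6 to 34.4 in control 1 and STZ 2 and 96.2 to 102 in control 3, STZ 1 and STZ 3.

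Among 6 genes for assembly and breakdown, 5 were higher and 1 lower in STZ hearts, none past the threshold, with a median of 0.26, or 0.14 without control 2. Unc45b, a myosin chaperone, was at 39.3 ± 9.68 and 51.96 ± 7.80 FPKM. Smyd1, a muscle methyltransferase needed for myofibril assembly, was at 117 ± 33.7 and 151 ± 10.5 FPKM. The log2 fold changes of 0.41 for Unc45b and 0.40 for Smyd1 were 0.20 and 0.16 without control 2. Trim54, Trim55 and Trim63 encode the MuRF ubiquitin ligases of muscle. Trim55 was at 155, 73.6 and 140 FPKM in the controls and 181, 202 and 155 FPKM in the STZ hearts. Its groups did not overlap, though STZ 3 at 155.2 FPKM was level with control 1 at 155.0 FPKM. Trim55 had the highest log2 fold change of the list, 0.60 (SE 0.293, 95% interval -0.09 to 1.30; adjusted p = 0.922 in limma), and 0.27 without control 2. Trim54 was at 6.50 ± 3.80 and 4.81 ± 1.28 FPKM, with its highest value, 10.4 FPKM, in control 2, and its log2 fold change of -0.26 turned to 0.12 without that heart.

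Trim63 and Fbxo32 encode MuRF1 and atrogin-1, the ligases that mark muscle wasting. Trim63 was at 74.6, 62.0 and 65.5 FPKM in the controls and 69.1, 76.7 and 69.4 FPKM in the STZ hearts. Fbxo32 was at 8.999, 8.28 and 10.5 FPKM against 8.95, 9.55 and 11.8 FPKM. The groups overlapped at both, with log2 fold changes of 0.09 (95% interval -0.21 to 0.39) and 0.11 (-0.22 to 0.44), or 0.03 and 0.04 without control 2. These were among the narrower intervals of the list, and control 2 was low at both by less than at Actn2, at 0.884 and 0.850 of the other controls. The log2 ratio of Trim63 to Fbxo32 was 2.87 ± 0.208 in control and 2.84 ± 0.241 in STZ hearts (exact two-sided permutation p = 0.8, BH-adjusted over 3 ratios p = 1), and its direction rested on single hearts.

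Control 2 lay at the edge of the range for most of the list. It was below both other controls at 27 of the 38 tested genes, above both at 7 and between them at 4, and it held the lowest value of all 6 hearts at 26 (68.4%), where it did so at 41.8% of all genes tested. The drop exceeded 1 log2 unit at 7 genes (18.4%), against 2.70% of all genes tested, namely Nrap, Ttn, Mybpc3, Actn2, Myom1, Des and Mypn. The 7 genes at which control 2 was above both other controls were Pdlim3, Trim54, Tpm2, Pdlim7, Tcap, Csrp3 and Fhl1. Pdlim3 was at 3.86 times, Trim54 at 2.28 times, Tpm2 at 2.19 times and Pdlim7 at 2.03 times the mean of controls 1 and 3. Beside these, the atrial, fibroblast, erythroid, macrophage and skeletal muscle marker sums of control 2 were the highest and the cardiomyocyte reference, ventricular and endothelial sums the lowest of the 6 libraries. Not every marker followed the sum of its list. Cox6a2, a cardiomyocyte reference gene, was at 549 FPKM in control 2 against 428 to 552 FPKM elsewhere. Pdgfra, a fibroblast marker, was at 9.86 FPKM in control 2 against 9.07 to 11.8 FPKM. Endothelial markers summed to 146 FPKM in control 2 and to 215 to 263 FPKM elsewhere. Kdr was at 14.3 FPKM against 36.0 to 43.8 FPKM and Cdh5 at 52.6 against 105 to 132 FPKM. The other endothelial markers of control 2 lay within the range of the other hearts. Pecam1 was at 41.4 against 40.5 to 49.5 FPKM, Tek at 26.8 against 24.0 to 30.0 FPKM and Emcn at 10.7 against 8.81 to 11.2 FPKM. Smooth muscle markers summed to 385 FPKM in control 2, 532 and 397 FPKM in the other controls and 294 to 582 FPKM in the STZ hearts. Most of that sum was Acta2, at 323 FPKM in control 2 and 252 to 538 FPKM elsewhere. Of the other smooth muscle markers, Cnn1 was at 19.4 FPKM in control 2 against 1.54 to 3.82 FPKM, Lmod1 at 4.05 against 0.356 to 0.557 FPKM and Myh11 at 10.8 against 4.38 to 5.99 FPKM, while Smtn was lowest in control 2. The part of these marker genes in the pattern was not tested.

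**Figure D3:**
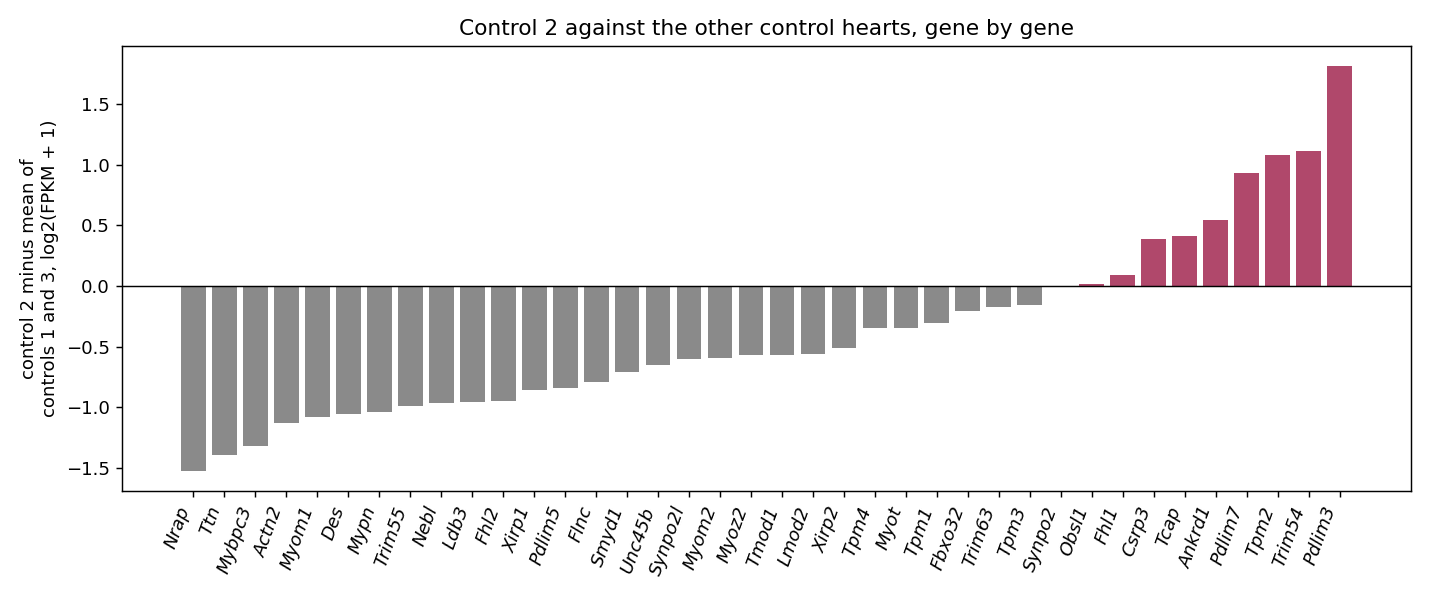
Control 2 minus the mean of controls 1 and 3, in log2(FPKM + 1), for the 38 tested genes in order. Grey bars are genes lower in control 2, down to -1.53 for Nrap, and red bars are genes higher in it, up to 1.81 for Pdlim3.

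Nrap and Mybpc3, from the low end of this order, and Pdlim3, at its high end, are shown with their upstream sequence, as RefSeq gives it on GRCm38.p6. Upstream windows of 250 bases were matched for 33 of the 39 genes. The sequences run 5′ to 3′ on the gene's strand and end at or before its annotated start, and Pdlim3 is cut to the 224 bases outside the gene as the deposited table places it. Capitals mark matches, on either strand, to the E-box CAGCTG, the MCAT element CATTCC or the MEF2 site, and the matches shown do not overlap each other.
Nrap, chr19:56390039-56390288, minus strand: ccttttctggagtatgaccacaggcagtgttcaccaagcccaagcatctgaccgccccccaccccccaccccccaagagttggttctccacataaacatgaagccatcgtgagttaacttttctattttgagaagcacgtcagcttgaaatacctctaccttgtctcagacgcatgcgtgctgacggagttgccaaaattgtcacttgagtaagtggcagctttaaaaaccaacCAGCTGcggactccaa
Mybpc3, chr2:91117894-91118143, plus strand: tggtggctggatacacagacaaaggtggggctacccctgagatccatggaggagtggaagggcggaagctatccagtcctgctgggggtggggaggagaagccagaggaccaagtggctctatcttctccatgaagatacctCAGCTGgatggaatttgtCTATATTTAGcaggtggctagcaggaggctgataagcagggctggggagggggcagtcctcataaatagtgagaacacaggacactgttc
Pdlim3, chr8:45885237-45885460, plus strand: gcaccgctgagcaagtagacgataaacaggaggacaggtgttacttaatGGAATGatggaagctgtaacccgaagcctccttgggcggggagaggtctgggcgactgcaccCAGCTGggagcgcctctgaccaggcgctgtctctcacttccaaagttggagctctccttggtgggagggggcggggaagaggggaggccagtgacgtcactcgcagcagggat
The E-box ended 11 bases before the start of Nrap and 103 bases before that of Mybpc3, where a MEF2 site followed at 90 to 81 bases. Counting a gene once if any of its windows matched, the MEF2 site was in 8 of the 33 genes (24.2%) and in 3.42% of the 27025 genes of the table. The CArG box, the site of serum response factor, was in 5 of 33 (15.2%) against 1.62%, the E-box in 11 of 33 (33.3%) against 14.7% and MCAT in 9 of 33 (27.3%) against 14.4%. A match is a description of these letters and not of binding.

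Leaving out control 2 made the differences and their intervals smaller at the median, but not at every gene. The log2 fold change went from 0.31 to 0.50 at Ankrd1 and from -0.14 to -0.25 at Tpm4, and the SE from 0.470 to 0.542 at Tpm3. The median width of the 95% interval went from 1.19 to 0.638 log2 units, and the median size of the log2 fold change from 0.30 to 0.10. The values then ran from -0.27 for Myot to 0.50 for Ankrd1, whereas they ran from -0.68 for Pdlim3 to 0.60 for Trim55 with all 6 hearts. At the 4 genes whose groups do not overlap, every STZ heart was above every control, so STZ had to stay higher without control 2. The 95% interval of each then held 0.

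**Figure D4:**
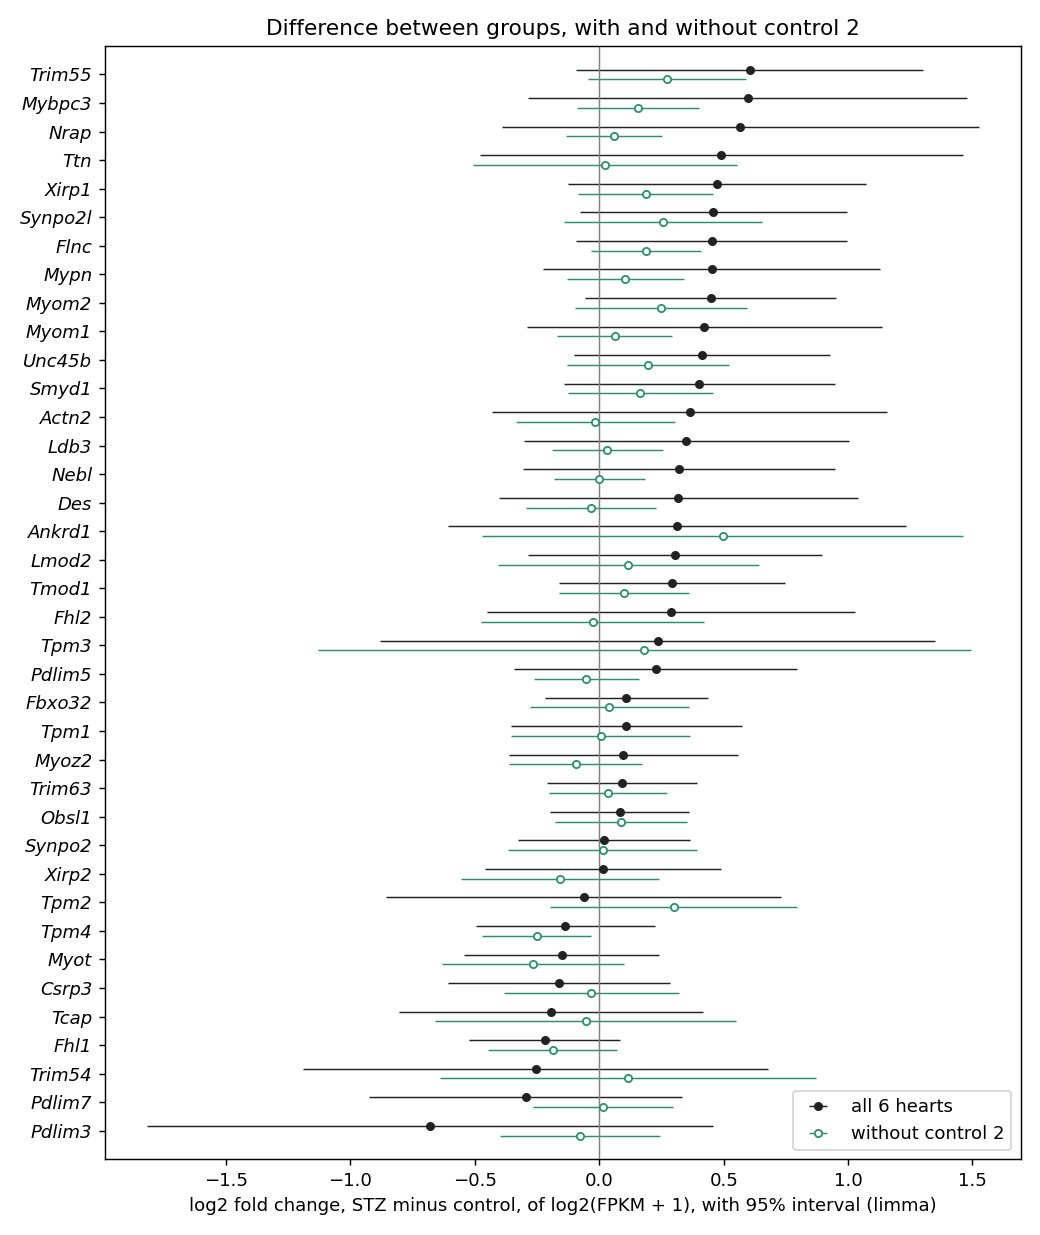
Log2 fold change of each tested gene, STZ minus control, with its 95% interval from limma, for all 6 hearts (black) and without control 2 (open green). The black intervals all cross 0; without control 2 the points lie closer to 0 for most genes, Pdlim3 going from -0.68 to -0.08, and only the Tpm4 interval leaves out 0.

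Measured against the heart muscle genes of the same library, the mean level of the list overlapped between the groups. The mean log2 level of the 38 genes minus that of the 10 cardiomyocyte reference genes was -4.06, -3.50 and -3.84 in control and -3.92, -3.94 and -3.86 in STZ hearts. Control 2 was the highest by this measure, and the STZ hearts lay between controls 1 and 3. Centring each library on the reference genes takes the same 0.30 log2 units from the difference of every gene. It moved the median of all genes tested from 0.03 to -0.26, and that of the list from 0.29 to -0.01, with 18 genes of the list higher and 20 lower, where 6.64% of all genes tested were higher.

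Other genes of the same structures, or linked to them, were counted the same way. Of 54 further symbols, chosen around the Z-disc, M-band, costamere and thin filament ends, 53 were among the deposited genes and 43 were tested. Of these, 32 were higher and 11 lower in STZ hearts, where 57.7% of all genes tested were higher. None passed the threshold, and the median was 0.10. The groups did not overlap at 3 of the 43 with STZ above and at 2 with STZ below, where 4.92% and 3.62% of all genes tested did so. Without control 2, 42 were tested, 21 were higher and 21 lower, none past the threshold, and the median was 0.0004. Of all genes then tested 49.5% were higher. Among the higher ones Speg, a striated muscle kinase, was at 13.9, 10.03 and 14.0 FPKM in the controls and 17.7, 17.1 and 14.7 FPKM in the STZ hearts. At Speg, named for the lowest unadjusted p among the higher ones, every STZ heart lay above every control, including controls 1 and 3. The 2 with the lowest unadjusted p among the lower ones were Csrp1, a LIM protein of smooth muscle, at 71.8 ± 12.8 and 51.7 ± 4.71 FPKM, and Pdlim4, at 7.52 ± 5.06 and 3.001 ± 0.0863 FPKM. Both were highest in control 2, and every STZ heart lay below every control.

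Some values may hold reads of a neighbour. Without a stated strand setting, reads of Smyd1 and Krcc1 (up to 35.9 FPKM), of Myom1 and Myl12a (up to 31.9 FPKM) and of Fhl2 and the pseudogene Gm8210 (up to 27.1 FPKM) cannot be told apart where these overlap on opposite strands. On the same strand, BC002189, annotated as intronic, overlaps Trim55 (up to 23.4 FPKM). Apart from Tpm3, the 1 gene with a copy elsewhere at 95% identity or more over at least 200 bases was Tpm4, whose pseudogene Gm7809 was at 0.504 FPKM or less in every heart.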

How the data were processed

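RNA-seq of 6 mouse hearts, 3 per group, was analysed from the deposited table of FPKM values per gene, which the authors scaled in each sample. Per the labels' protocols, libraries were made from total RNA with a SMARTER mRNA kit; the submitters' processing notes name GRCm38 (mm10). For the aligner, counter, strand setting and treatment of multiply mapped reads, nothing is stated (not given in the sources used here). With the gene lengths in the table, every value gave a whole number of reads to within 0.01, and totals of 16707268 to 18082599 recovered reads limit the precision of low genes. The authors' scale ranged from 0.985 to 1.03 times the recovered total, except for control 2, where it was 1.21 times.

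Genes with at least 1 FPKM in at least 3 samples (12431) were tested with limma 3.58.1 (trend) in R 4.3.3 on log2(FPKM + 1), with Benjamini-Hochberg (BH) adjustment over all of them and a threshold of 0.05; fold changes on this scale understate changes of low genes. Single values were compared by exact two-sided permutation of 20 assignments. Copies were found with blastn 2.17.0. Groups came from the treatment label. The 39 genes and all lists were chosen with earlier results of these data known. Every member is named; values in every sample are given for 20 set genes and for those whose groups do not overlap, and Nrap, Pdlim3 and Pdlim7 were added after their values were seen, as were the promoters printed. Of the other sarcomere genes, the 2 with the lowest unadjusted p in each direction were to be named; 1 item is not reported here. In counts simulated for STZ against control, 200 genes above a floor of mean reads were changed, and each library was drawn independently. Of 2-fold changes, 45.5% were recovered (12664 genes tested, with 11 unchanged genes called). Of 4-fold changes, 86.5% were recovered (12629 genes tested, with 7 unchanged genes called). Smaller changes, and a shift shared by many genes of 1 library as in control 2, were not simulated. Alternatives were another pseudocount and filters, other scalings, a replicate block, sample weights, voom on recovered reads (chosen after seeing the data) and leaving out each heart.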

Additional observations from a re-analysis of the deposited data

How the results depend on the processing

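Under each of the 15 alternatives run, none of the listed genes tested there passed the threshold in limma, and 20 of the 38 kept their direction wherever they were tested; a mean of at least 5 FPKM left 36, without Myot and Xirp2. Over all genes tested, 2 were called higher and 1 lower in STZ hearts; the number higher was 1 with a pseudocount of 0.1, with no filter, with a mean of at least 5 FPKM, with cardiomyocyte reference centring and with voom, and the number lower was 2 with quantile scaling or reference centring, 6 with sample weights (0.146 for control 2) and 0 with voom. Leaving out 1 heart gave 1 to 2 higher and 1 to 3 lower. The median of the 38 genes was -0.0051 with reference centring and 0.037 (without control 2) to 0.39 with 1 heart left out. Between hearts of the same replicate number, deviations from the group means correlated at 0.021, -0.041 and 0.092. Control 2 weighs on the deviations of every control, so these values cannot tell whether hearts were paired. With the replicate block 0 genes were called higher and 0 lower. In limma with that block 148 and 225 had an unadjusted p under 0.05, against 145 and 177 without it.

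Directions turned with reference centring, which takes the same amount from every gene, at Obsl1 (-0.21), Myoz2 (-0.20), Pdlim5 (-0.068), Synpo2 (-0.28), Xirp2 (-0.28), Fhl2 (-0.0065), Tmod1 (-0.0037), Tpm1 (-0.19), Tpm3 (-0.060), Trim63 (-0.20) and Fbxo32 (-0.19). With sample weights they turned at Actn2 (-0.014), Myoz2 (-0.13), Pdlim5 (-0.022), Synpo2 (-0.081), Csrp3 (0.012), Xirp2 (-0.024), Fhl2 (-0.11), Des (-0.038), Tpm1 (-0.050), Tpm2 (0.12) and Trim54 (0.0011). Synpo2 and Xirp2 turned with recovered-read scaling (-0.042 and -0.030) and voom (-0.052 and -0.044), and Synpo2 with quantile scaling (-0.0058). The cause was not tested. With 1 heart left out, ranges that crossed 0 were -0.015 to 0.57 for Actn2, -0.094 to 0.26 for Myoz2, -0.053 to 0.39 for Pdlim5, -0.47 to 0.015 for Pdlim7, -0.099 to 0.14 for Synpo2, -0.12 to 0.56 for Ankrd1, -0.16 to 0.20 for Xirp2, -0.026 to 0.56 for Fhl2, -0.034 to 0.54 for Des, -0.25 to 0.30 for Tpm2, -0.092 to 0.68 for Tpm3, -0.68 to 0.12 for Trim54, -0.15 to 0.19 for the log2 ratio of Myom2 to Myom1 and -0.14 to 0.11 for that of Trim63 to Fbxo32. The Tpm1 share of FPKM differed by 1.82 to 5.04 percentage points. As a share of recovered reads it differed by 1.48 percentage points with all hearts (exact two-sided permutation p = 0.4). With 1 heart left out, the share of reads differed by 0.64 (without control 3) to 2.83 percentage points (without control 1). The 2 planned count-model fits were not run, since the deposited unit is FPKM.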
